A study of Homo sapiens with 8 samples.

Results

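The urokinase system was described here through 5 genes, PLAU, PLAUR, PLAT, SERPINE2 and SERPINB2, taken by name from the deposited expression tables out of 59370 genes in all. RNA was sequenced from BJ cells, an established line of human skin fibroblasts, in 8 libraries. The OE-PURPL group carried overexpression of the long noncoding RNA PURPL, and PCDNA is the label of its control. In the ASO-PURPL group PURPL was knocked down with an antisense oligonucleotide, and ASO-NC is the label of its control. Each group held 2 libraries, all from 1 cell line, and the labels used here give no dose, time after treatment or culture for any of them. Levels are given in FPKM, which corrects read fragments for the length of the transcript and the size of the library, so genes can be set side by side. All 5 genes lay far above the filter on low values, a mean of 1 FPKM, and were among the 14977 genes tested.

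Plasminogen activators are serine proteases that turn plasminogen into plasmin, which degrades fibrin and matrix proteins and activates other proteases and growth factors. Urokinase, the product of PLAU, is held at the cell surface by its receptor, the product of PLAUR, and acts in cell migration and wound repair. Tissue plasminogen activator, the product of PLAT, is best known for dissolving fibrin clots. Serpins stop these enzymes by a suicide mechanism. SERPINB2 encodes plasminogen activator inhibitor type 2, much of which stays inside the cell, and SERPINE2 encodes protease nexin-1, a secreted serpin that inhibits thrombin, urokinase and plasmin. Several of these genes are counted among the factors secreted by senescent fibroblasts.

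All 9 fibroblast markers, among them COL1A1 and VIM, reached 1 FPKM in every library, with sums of 3669 to 5691 FPKM. Markers of endothelial cells summed to at most 2.14 FPKM and those of melanocytes to at most 3.63 FPKM. The 7 keratinocyte markers summed to 8.09 to 35.6 FPKM, mostly KRT10 (at most 35.3 FPKM), with KRT5 and KRT1 at no more than 0.01 FPKM in all 8 libraries. The 7 immune markers summed to 60.4 to 355.9 FPKM, mostly CD68, and are given by group beside SERPINB2. PURPL stood at 153 and 238 FPKM in OE-PURPL against 5.42 and 5.73 FPKM in PCDNA, and at 6.31 and 4.24 FPKM in ASO-PURPL against 16.2 and 9.74 FPKM in ASO-NC. The log2 change of PURPL was 4.87 after overexpression, which passed over all genes (adjusted p = 0.00511, limma with Benjamini-Hochberg adjustment), and -1.13 after knockdown, which did not (adjusted p = 0.374). Summed FPKM per library ran from 464110 to 587727, and sequencing depth is unknown.

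PLAUR and SERPINB2 were higher after PURPL overexpression in both pairs and lower after its knockdown in both pairs. That pattern was seen for 12.5% of all genes tested, and neither gene passed the test over all genes in either comparison. PLAUR had the largest mean change of the 5, 1.40-fold after overexpression. PLAU, PLAT and SERPINE2 had intervals that included no change in both comparisons, and so did PLAUR and SERPINB2 after knockdown. The largest difference in the 5 genes lay between the 2 arms of the study: SERPINB2 stood 5.13-fold and 3.11-fold higher in PCDNA than in ASO-NC. In bulk RNA, fewer cells that express a gene and less RNA of it per cell cannot be told apart.

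The sequences upstream of PLAUR and SERPINB2 are shown because these were the 2 genes that stood higher in both overexpression pairs and lower in both knockdown pairs, a choice made after their values were seen. They are the 250 bases before the RefSeq start on GRCh38.p14, 5′ to 3′ on the gene's strand. Capitals mark matches to TGANTCA, where N is any base, and to TATAAA, the core of a TATA box. TGANTCA is a loose pattern that includes the motif of AP-1 factors. Both strands were searched, also for CCAAT, which was absent from both windows.
PLAUR, chr19:43670170-43670419, minus strand: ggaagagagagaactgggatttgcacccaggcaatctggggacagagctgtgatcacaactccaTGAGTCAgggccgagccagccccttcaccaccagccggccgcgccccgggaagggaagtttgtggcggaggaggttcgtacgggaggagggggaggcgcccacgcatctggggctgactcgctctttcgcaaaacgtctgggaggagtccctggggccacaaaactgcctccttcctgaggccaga
SERPINB2, chr18:63887455-63887704, plus strand: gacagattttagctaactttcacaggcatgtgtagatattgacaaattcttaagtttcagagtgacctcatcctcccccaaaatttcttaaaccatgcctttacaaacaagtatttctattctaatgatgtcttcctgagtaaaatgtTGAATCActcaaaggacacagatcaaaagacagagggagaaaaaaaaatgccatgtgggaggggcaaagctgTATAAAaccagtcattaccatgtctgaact
In the PLAUR window the match TGAGTCA began 186 bases before the start. The SERPINB2 window held TGAATCA, beginning 102 bases before the start, and TATAAA, beginning 30 bases before it. Of 35116 such windows in the RefSeq table, 6.57% held TGANTCA, 10.7% held TATAAA and 32.0% held CCAAT. Neither of the 2 PLAU windows nor of the 2 SERPINE2 windows held TGANTCA. No PLAT window is reported here, so these windows do not show whether the match follows the changes. The window of 1 of the 2 SERPINE2 starts, the one at chromosome 2 from 224031479 to 224031728, held 7 matches to CCAAT. These matches are a description of the letters and were not tested against the expression values.

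PLAU (ENSG00000122861.15, chromosome 10, 73909177 to 73917497, plus strand, GENCODE 29) encodes urokinase. It stood at 210.5 and 206 FPKM in OE-PURPL against 201 and 218 FPKM in PCDNA, and the groups overlapped. In the knockdown arm it stood at 158 and 170.1 FPKM in ASO-PURPL against 131 and 176 FPKM in ASO-NC, which overlapped as well. The pairs did not share a direction in either comparison, with log2 ratios of 0.07 and -0.08 for overexpression and of 0.27 and -0.05 for knockdown. The mean log2 change was -0.01 after overexpression (95% interval -0.29 to 0.27, adjusted p = 0.996, limma) and 0.11 after knockdown (-0.17 to 0.39, adjusted p = 0.8). C10orf55, a gene on the opposite strand that overlaps PLAU, stood at 0.813 to 2.39 FPKM, and whether fragments were assigned by strand is not stated in the labels.

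PLAUR (ENSG00000011422.11, chromosome 19, 43646095 to 43670547, minus strand) encodes the receptor that anchors urokinase to the membrane. It stood at 246 and 262 FPKM in OE-PURPL against 187 and 176 FPKM in PCDNA. Both OE-PURPL libraries lay above both PCDNA libraries, and the means were 254 ± 11 FPKM in OE-PURPL and 181 ± 7.57 FPKM in PCDNA (SD, n = 2 each). The log2 ratios of the pairs were 0.40 and 0.57, and 91.4% and 95.3% of the tested genes had lower ratios in the same pairs. The mean log2 change of PLAUR was 0.48 (SE 0.09, 95% interval 0.25 to 0.72), with an adjusted p of 0.324 in limma, so it did not pass. The authors' deposited table gave a log2 fold change of 0.398 for the first pair. That value describes the same libraries as the 0.40 above and adds no separate support. Ratios of the overexpression pairs followed GC content and transcript length across genes (Spearman 0.46 and 0.37 for GC, -0.34 and -0.36 for length), and PLAUR has 55.7% GC in its longest transcript of 1610 bases. With that trend removed the PLAUR change was 0.29, 0.24 and 0.34 in the pairs (adjusted p = 0.585), and it was 0.31 in a fit with quantile normalization and no replicate block (adjusted p = 1.0).

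After knockdown PLAUR stood at 118 and 94.9 FPKM in ASO-PURPL against 122 and 107 FPKM in ASO-NC. Each ASO-PURPL library lay slightly under its own control, and the groups overlapped. The log2 ratios of the pairs were -0.04 and -0.17, where the medians of all genes tested were -0.02 and -0.06. In the same pairs 47.2% and 30.0% of the tested genes had lower ratios. The mean log2 change was -0.10 (95% interval -0.34 to 0.13, adjusted p = 0.774, limma). The overexpression change minus the knockdown change of PLAUR was 0.59 on the log2 scale (SE 0.13, 95% interval 0.26 to 0.92), with an adjusted p of 0.35, and 0.347 with the length and GC trend removed. RN7SL368P, a small RNA gene on the same strand within PLAUR, stood at no more than 3.29 FPKM.

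PLAT (ENSG00000104368.17, chromosome 8, 42175233 to 42207724, minus strand) encodes tissue plasminogen activator and was the lowest and the most even of the 5 genes, between 30.5 and 35.8 FPKM in all 8 libraries. Its OE-PURPL levels, 35.8 and 33.2 FPKM, did not overlap the PCDNA levels of 31.1 and 31.4 FPKM. Its ASO-PURPL levels were 34.5 and 30.5 FPKM, around the ASO-NC levels of 33.8 and 33.4 FPKM. The mean log2 changes were 0.14 (95% interval -0.10 to 0.38, adjusted p = 0.534) and -0.05 (-0.29 to 0.19, adjusted p = 0.914, limma).

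SERPINE2 (ENSG00000135919.12, chromosome 2, 223975112 to 224039319, minus strand), the gene of protease nexin-1, was the highest of the 5 in the knockdown arm. It stood at 486 and 406 FPKM in OE-PURPL against 487 and 438 FPKM in PCDNA. In the other arm it stood at 587 and 627 FPKM in ASO-PURPL against 541 and 673 FPKM in ASO-NC. The groups overlapped in both comparisons. The mean log2 changes were -0.06 (95% interval -0.32 to 0.21, adjusted p = 0.838) and 0.01 (-0.26 to 0.28, adjusted p = 0.991, limma). With the GC and length trend removed, the overexpression value turned to 0.12 (adjusted p = 0.767), and SERPINE2 has 41.0% GC in its longest transcript of 5989 bases.

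SERPINB2 (ENSG00000197632.8, chromosome 18, 63871692 to 63903890, plus strand) encodes plasminogen activator inhibitor type 2. It stood at 527 and 658 FPKM in OE-PURPL against 482 and 459 FPKM in PCDNA, so that both OE-PURPL libraries lay above both PCDNA libraries. The pairs differed in size, with log2 ratios of 0.13 and 0.52, and 69.7% and 93.9% of the tested genes had lower ratios in the same pairs. The mean log2 change was 0.32 (SE 0.12, 95% interval 0.02 to 0.63, adjusted p = 0.355, limma). It was 0.52 without replicate 1, 0.13 without replicate 2 and 0.15 in the fit with quantile normalization and no replicate block. With the GC and length trend removed it was 0.36.

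In the knockdown arm SERPINB2 stood at 85.9 and 128 FPKM in ASO-PURPL against 93.9 and 148 FPKM in ASO-NC. Each ASO-PURPL library lay under its own control, while the replicates of a group, which stand in different tables, differed 1.49-fold and 1.58-fold. The log2 ratios of the pairs were -0.13 and -0.21, and 35.5% and 23.3% of the tested genes had lower ratios in the same pairs. The mean log2 change was -0.17 (95% interval -0.47 to 0.13, adjusted p = 0.709, limma). The overexpression change minus the knockdown change was 0.49 (SE 0.17, 95% interval 0.06 to 0.92, adjusted p = 0.373), and 0.271 in the fit with quantile normalization and no replicate block. SERPINB10, a gene on the same strand that overlaps SERPINB2, stood at 0.138 to 1.61 FPKM.

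**Figure D1:**
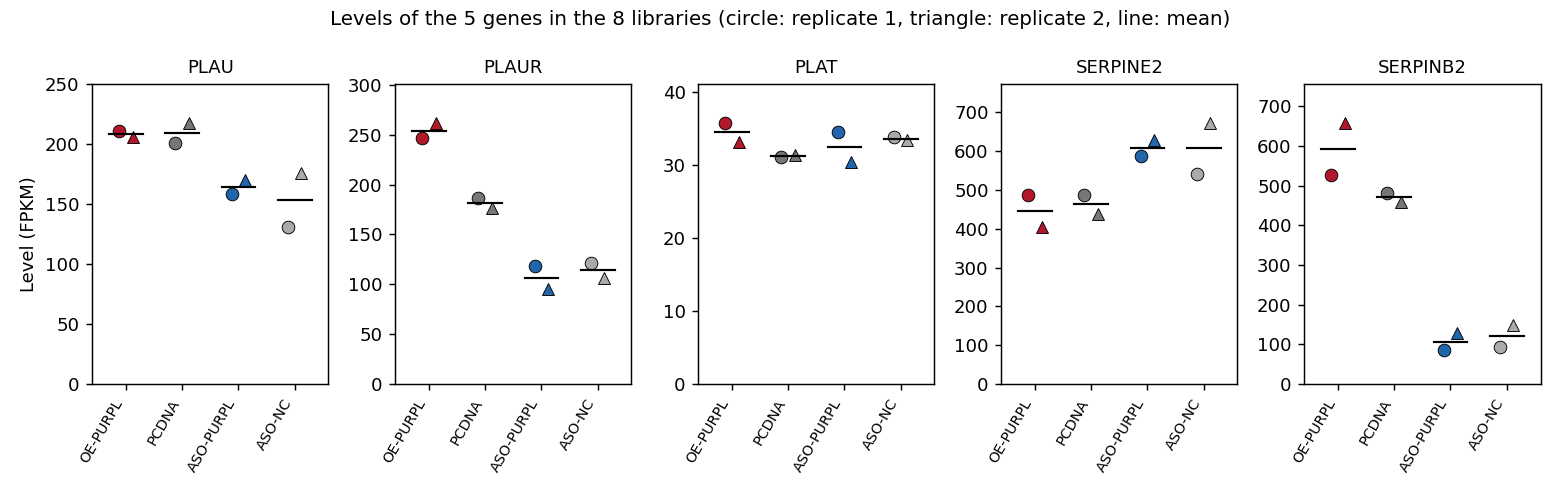
FPKM (vertical axes, each from 0) of PLAU, PLAUR, PLAT, SERPINE2 and SERPINB2 in the 4 groups (horizontal axes), with replicate 1 as a circle, replicate 2 as a triangle and the group mean as a line. PLAUR lies at 246 and 262 FPKM in OE-PURPL, above all other libraries, and SERPINB2 at 85.9 to 148 FPKM in the ASO-PURPL and ASO-NC libraries, below all libraries of the other arm.

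By count, 0 of the 5 genes passed the test after overexpression or after knockdown, where 0.0267% of all genes tested passed upward after overexpression and 0.0% passed downward or after knockdown. At an unadjusted p under 0.05 by limma there were 2 after overexpression, PLAUR and SERPINB2, both higher, where 13.8% of all genes tested reached that p, 8.25% upward and 5.51% downward. After knockdown there were 0 of the 5, where 8.18% of all genes tested reached it, 3.54% upward and 4.64% downward. For the overexpression change minus the knockdown change 0 passed, as against 0.02% of all genes tested, and PLAUR and SERPINB2 had an unadjusted p under 0.05, reached by 13.0% of all genes tested, 8.52% upward and 4.47% downward. A p above the threshold does not show that a gene was the same in both groups.

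PLAUR, PLAT and SERPINB2 were higher in both overexpression pairs, as were 32.6% of all genes tested, and SERPINE2 was lower in both, as were 31.1%. SERPINE2 was 0.998-fold in pair 1, which is close to no change, and 0.925-fold in pair 2. With the length and GC trend removed, its log2 ratios in these pairs were 0.2 and 0.05. PLAUR, PLAT and SERPINB2 also had OE-PURPL libraries above all PCDNA libraries, which held for 23.5% of all genes tested, with 23.4% the other way round. PLAUR and SERPINB2 were lower in both knockdown pairs, as were 33.4%, and 0 of the 5 were higher in both, where 19.3% were. None of the 5 had ASO-PURPL and ASO-NC libraries apart, where 8.37% of all genes tested were apart upward and 13.1% downward. Being higher in both overexpression pairs and lower in both knockdown pairs was seen for 12.5% of all genes tested. With 2 libraries a group, an exact two-sided permutation test of 1 gene cannot go below p = 0.333, so none was run.

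**Figure D2:**
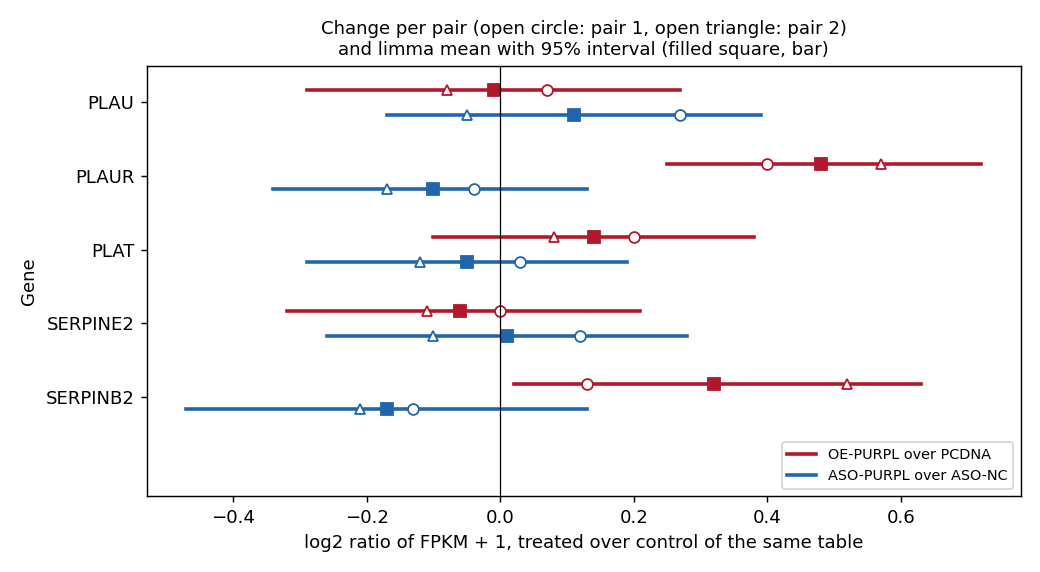
Log2 ratios of FPKM + 1 (horizontal axis) for the 5 genes (vertical axis), OE-PURPL over PCDNA in red and ASO-PURPL over ASO-NC in blue, with pair 1 as an open circle, pair 2 as an open triangle and the limma mean with its 95% interval as a filled square and bar. The overexpression bars of PLAUR (0.25 to 0.72) and SERPINB2 (0.02 to 0.63) lie to the right of 0, and the other 8 bars cross it.

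Ratios of 2 genes within a library do not depend on how that library was scaled, but a trend with length or GC content still enters them. PLAUR over PLAU, receptor transcript per urokinase transcript, was 1.17 and 1.27 in OE-PURPL against 0.929 and 0.809 in PCDNA. It was 0.746 and 0.558 in ASO-PURPL against 0.929 and 0.607 in ASO-NC. The ratio exceeded 1 in both OE-PURPL libraries and in no other library. On the log2 scale it differed by 0.33 and 0.65 in the overexpression pairs and by -0.32 and -0.12 in the knockdown pairs.

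The ratio of the serpins, SERPINB2 over SERPINE2, was 1.08 and 1.62 in OE-PURPL against 0.989 and 1.05 in PCDNA. In the knockdown arm it was 0.146 and 0.204 in ASO-PURPL against 0.173 and 0.22 in ASO-NC. The ratio was higher in OE-PURPL than in PCDNA and lower in ASO-PURPL than in ASO-NC in each pair, and its value in any library of the overexpression arm was above that in any library of the knockdown arm. With the length and GC trend removed, SERPINB2 and SERPINE2 both had a log2 change of 0.20 in overexpression pair 1, which leaves no difference in their ratio, and had 0.51 and 0.05 in pair 2. PLAU over SERPINE2 was 0.433 and 0.508 in OE-PURPL against 0.412 and 0.496 in PCDNA, and 0.27 and 0.271 in ASO-PURPL against 0.242 and 0.261 in ASO-NC. The urokinase transcript was below that of protease nexin-1 in all 8 libraries.

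**Figure D3:**
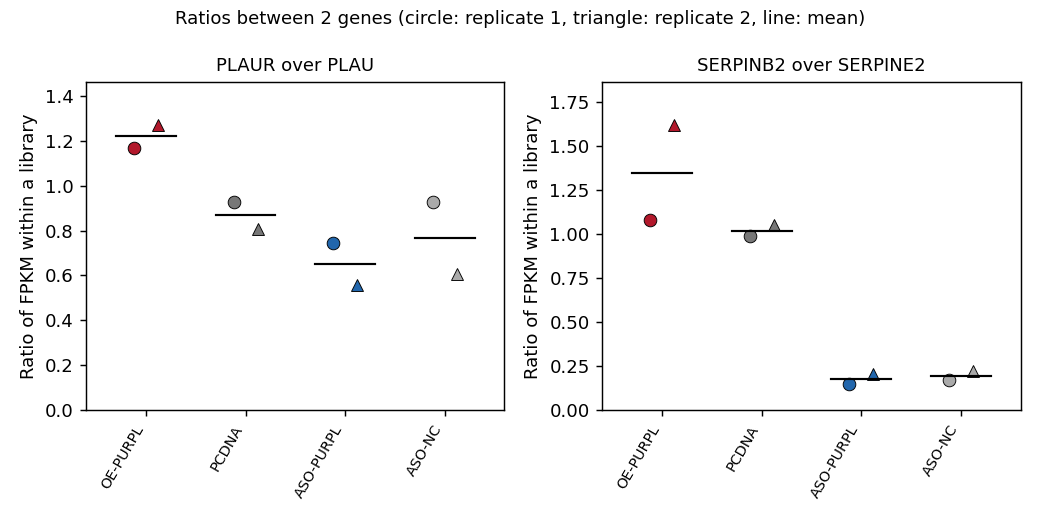
Ratio of FPKM within a library (vertical axes, from 0) for PLAUR over PLAU and for SERPINB2 over SERPINE2 in the 4 groups (horizontal axes), with replicate 1 as a circle, replicate 2 as a triangle and the mean as a line. PLAUR over PLAU is 1.17 and 1.27 in OE-PURPL and at most 0.929 elsewhere, and SERPINB2 over SERPINE2 is at most 0.22 in the knockdown arm and at least 0.989 in the other.

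By level, the serpins led the 5 genes in the overexpression arm. In both OE-PURPL libraries the order was SERPINB2, SERPINE2, PLAUR, PLAU and PLAT. In the PCDNA libraries SERPINB2 (482 and 459 FPKM) and SERPINE2 (487 and 438 FPKM) overlapped, and PLAU (201 and 218 FPKM) stood above PLAUR (187 and 176 FPKM). In all 4 libraries of the knockdown arm SERPINE2 stood highest, PLAU second and PLAT lowest, while PLAUR and SERPINB2 changed places between the replicates. Among genes of at least 1 FPKM in the same library, SERPINE2 stood above 98.4% to 99.4%, PLAU above 94.9% to 97.1% and PLAT above 77.5% to 81.5%. SERPINB2 stood above 98.9% to 99.2% in the overexpression arm and above 92.1% to 96.2% in the knockdown arm.

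Between the control groups, SERPINB2 was the gene of the 5 that differed most. The log2 difference of PCDNA minus ASO-NC was 2.35 in replicate 1, whose libraries stand in separate tables, and 1.63 in replicate 2, whose libraries share a table. A difference of at least 1 in both replicates was reached by SERPINB2 alone of the 5, and by 4.71% of all genes tested upward and 2.94% downward. PLAUR differed by 0.61 and 0.72, PLAU by 0.61 and 0.31, SERPINE2 by -0.15 and -0.62 and PLAT by -0.12 and -0.09, where the median of all genes tested was -0.05 and 0.05. PURPL averaged 5.58 FPKM in PCDNA and 13.0 FPKM in ASO-NC, where SERPINB2 averaged 470.5 and 120.9 FPKM. The part of PURPL in this difference was not tested. No test was made between the arms, which share a table in 1 replicate only, and whatever else sets them apart cannot be told apart from the arm itself.

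The summed level of markers of macrophages and other immune cells, some of which are known to make SERPINB2, also differed between the arms. Their 7 genes summed to 351 to 356 FPKM in OE-PURPL, 287 to 317 FPKM in PCDNA, 60.4 to 84.6 FPKM in ASO-PURPL and 67.3 to 81.5 FPKM in ASO-NC. CD68, a lysosomal glycoprotein that fibroblasts express too, made up most of these sums, with means of 351, 299.5, 68.4 and 71.4 FPKM in the same order of groups. In each group 2 of the 7 markers reached 1 FPKM in both libraries. TYROBP was at no more than 0.01 FPKM in all 8 libraries, and PTPRC reached at most 0.303 FPKM, LYZ 0.168 FPKM, CD14 2.63 FPKM and CSF1R 3.24 FPKM. CSF1R ran against CD68, with means of 0.655, 0.431, 2.26 and 1.3 FPKM in the same order of groups. CD14 had means of 1.82, 1.93, 1.42 and 1.47 FPKM, and the means of PTPRC and LYZ did not separate the arms. The keratinocyte markers summed to 8.09 to 11.6 FPKM in the overexpression arm and to 8.78 to 35.6 FPKM in the knockdown arm, mostly KRT10. The part of these markers in the SERPINB2 difference was not tested.

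**Figure D4:**
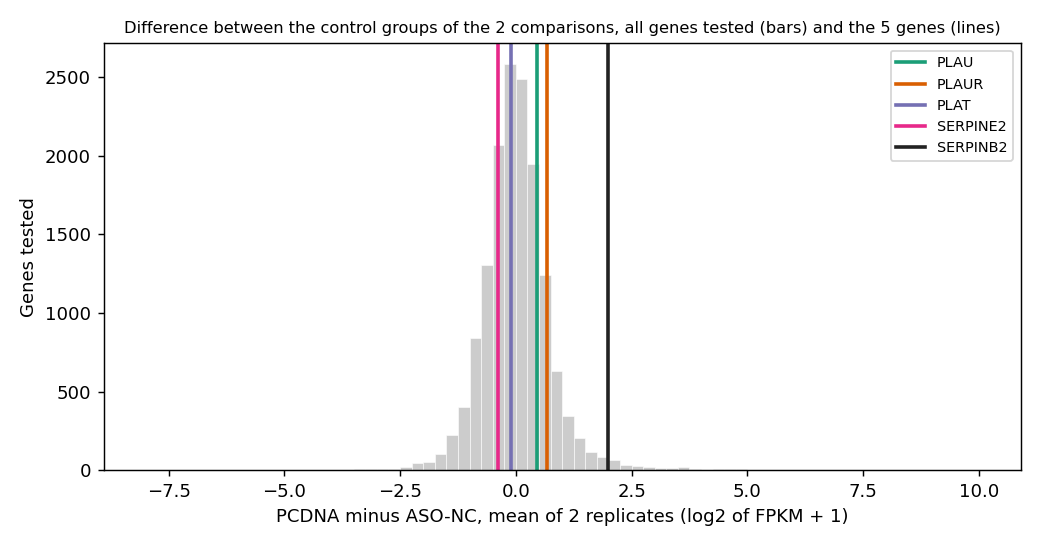
Number of tested genes (vertical axis) by the log2 difference of PCDNA minus ASO-NC, mean of the 2 replicates (horizontal axis, log2 of FPKM + 1), with a line at the value of each of the 5 genes. SERPINB2 lies at 1.99, and the other 4 genes lie between -0.38 and 0.67.

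The rest of the urokinase system was followed in 6 lists holding 56 genes, of which 34 passed the filter. No member passed the test in either comparison, at adjusted p-values of at least 0.324 after overexpression and at least 0.582 after knockdown (limma). In both overexpression pairs 12 were higher and 14 lower, where 32.6% and 31.1% of all genes tested were. In both knockdown pairs 5 were higher and 12 lower, where 19.3% and 33.4% of all genes tested were. Of the 14, SERPINF2 was far below 1 FPKM in the overexpression arm. The median log2 change over the 34 genes was -0.02 after overexpression, with 0.0 over all genes tested. After knockdown it was 0.0, with -0.04 over all genes tested. PLG, which encodes plasminogen, reached at most 0.288 FPKM, and the fibrinogen genes FGA, FGB and FGG at most 0.0273 FPKM.

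Among 5 tested receptors and surface partners of plasminogen, 3 were higher in both overexpression pairs and 0 lower (median log2 change 0.16). Of all genes tested, 32.6% were higher and 31.1% lower in both of these pairs. The median of the list was 0.078 with the length and GC trend removed, and 0.011 with quantile normalization and no replicate block. ANXA2 and S100A10 encode the subunits of a membrane complex that binds plasminogen and tissue plasminogen activator. ANXA2 stood at 1136 and 1226 FPKM in OE-PURPL against 1051 and 1035 FPKM in PCDNA (log2 ratios 0.11 and 0.24, adjusted p = 0.565, limma). S100A10 had 283 and 329 FPKM in OE-PURPL against 258 and 238 FPKM in PCDNA (0.13 and 0.47, adjusted p = 0.402), and ENO1, a glycolytic enzyme that also binds plasminogen at the surface, had ratios of 0.26 and 0.06. After knockdown 0 were higher and 2 lower in both pairs, PLGRKT, a plasminogen receptor (-0.14 and -0.03), and ENO1 (-0.10 and -0.13). Of all genes tested, 19.3% were higher and 33.4% lower in both knockdown pairs.

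Of the other inhibitors 3 passed the filter, with a median log2 change of 0.08 after knockdown. SERPINI1, the gene of neuroserpin, had overexpression ratios of 0.03 and 0.21, and A2M, a general protease inhibitor, had knockdown ratios of 0.10 and 0.06. SERPINF2, the gene of the plasmin inhibitor antiplasmin, passed the filter through the knockdown arm and stood at 0.133 and 0.138 FPKM in OE-PURPL against 0.148 and 0.18 FPKM in PCDNA, too low to read a direction.

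The list of endocytic receptors that clear complexes of activator and inhibitor held 6 tested genes, including LRPAP1, which is not itself a receptor. Its median log2 change was -0.19 after overexpression and -0.17 after knockdown. Of its genes 2 were higher and 4 lower in both overexpression pairs, where 32.6% and 31.1% of all genes tested were. In both knockdown pairs 1 was higher and 3 were lower, where 19.3% and 33.4% of all genes tested were. The overexpression median was -0.021 with the length and GC trend removed and -0.047 without OE-PURPL replicate 1, and the knockdown median was -0.093 without ASO-PURPL replicate 1. LRP1, the main clearance receptor, stood at 84.9 and 80.7 FPKM in OE-PURPL against 116 and 84.3 FPKM in PCDNA (-0.45 and -0.06, adjusted p = 0.504, limma), and SORT1, a sorting receptor, had ratios of -0.29 and -0.24. LRPAP1, a chaperone that keeps these receptors free of ligand during their synthesis, had ratios of opposite sign in the arms. Its level was 176 and 182 FPKM in OE-PURPL against 139 and 139.7 FPKM in PCDNA (0.33 and 0.38, adjusted p = 0.324), and 270.4 and 145 FPKM in ASO-PURPL against 324 and 166 FPKM in ASO-NC (-0.26 and -0.19, adjusted p = 0.598). After knockdown SORT1 had ratios of -0.20 and -0.08 and VLDLR, a lipoprotein receptor that also takes up such complexes, of -0.29 and -0.14.

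Of 8 tested partners of the urokinase receptor, 5 were lower and 2 higher in both overexpression pairs (median -0.12). Of all genes tested, 31.1% were lower and 32.6% higher in both of these pairs. ITGAV, an integrin subunit that pairs with ITGB3 and ITGB5 to bind vitronectin, stood at 12.8 and 14.3 FPKM in OE-PURPL against 16.4 and 17.8 FPKM in PCDNA (-0.33 and -0.30, adjusted p = 0.331, limma). EGFR, a growth factor receptor reported to signal together with the urokinase receptor, had ratios of -0.26 and -0.27, while ITGB5 had 0.28 and 0.20. After knockdown ITGB5 had -0.25 and -0.06, ITGB3 had -0.12 and -0.10 and ITGB1 had -0.01 and -0.04. The lysosomal proteases CTSB and CTSL, which can activate pro-urokinase, were the 2 tested genes of their list. CTSB had overexpression ratios of 0.09 and 0.38 and CTSL of 0.18 and 0.34, and in the knockdown arm the pairs of both genes differed in direction.

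Among 10 tested substrates of plasmin or the activators, 2 were higher and 4 lower in both overexpression pairs. Of all genes tested, 32.6% were higher and 31.1% lower in both of these pairs. In both knockdown pairs 3 substrates were higher and 4 lower, where 19.3% and 33.4% of all genes tested were. PDGFC, a growth factor activated by tissue plasminogen activator, stood at 45.7 and 42.5 FPKM in OE-PURPL against 53.5 and 55.8 FPKM in PCDNA (-0.22 and -0.38, adjusted p = 0.358, limma). BDNF, a neurotrophin whose precursor plasmin can cleave, had overexpression ratios of -0.20 and -0.19 and knockdown ratios of 0.20 and 0.26. TGFB1 had knockdown ratios of -0.13 and -0.25. MST1 had overexpression ratios of 0.28 and 0.46 and knockdown ratios of 0.40 and 0.86, and is uncertain because near-identical copies of it exist in the genome.

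**Figure D5:**
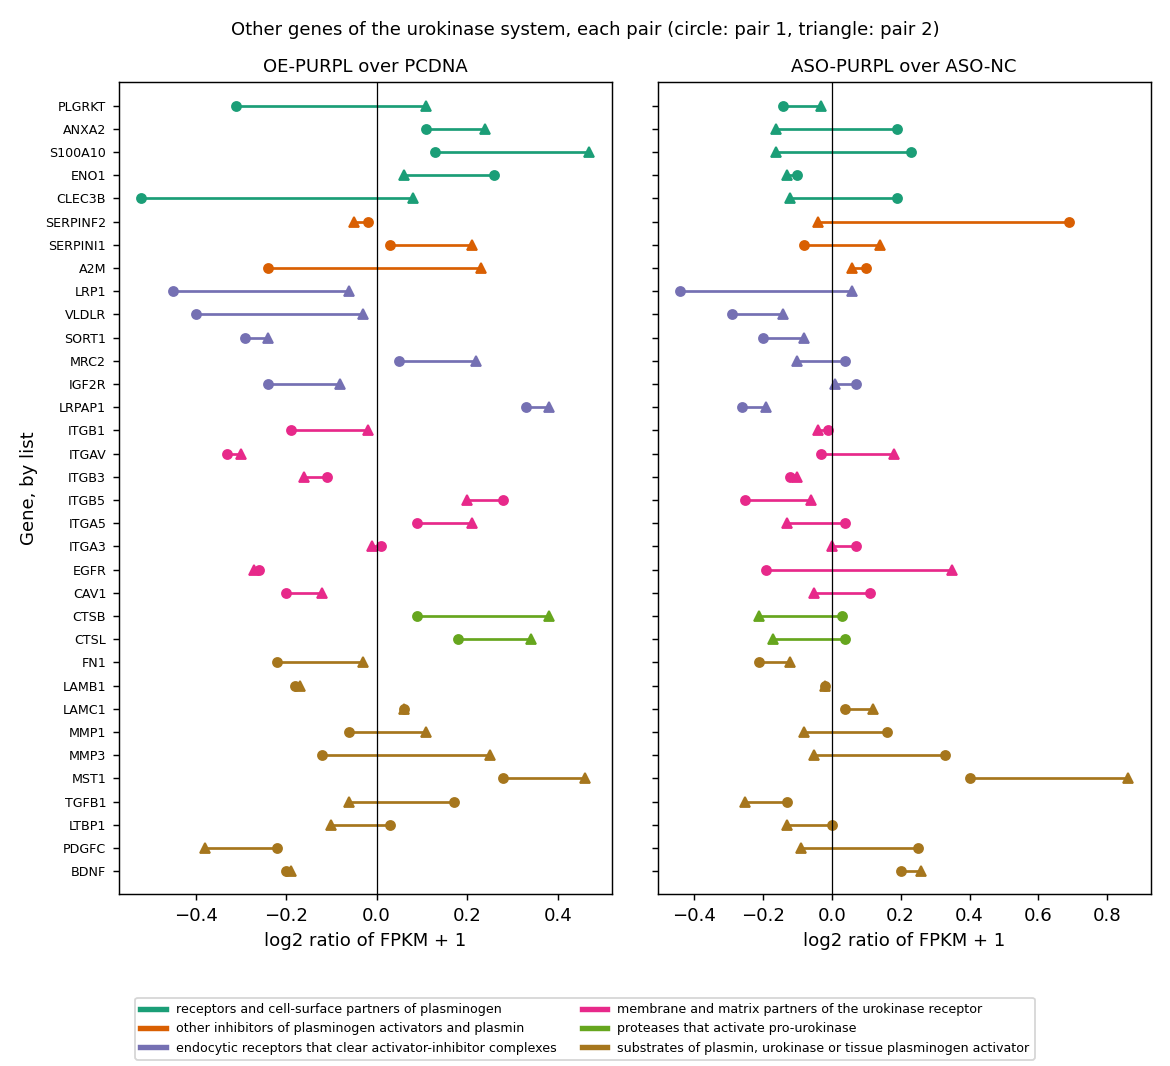
Log2 ratios of FPKM + 1 (horizontal axes) of the 34 other urokinase-system genes that passed the filter (vertical axis, coloured by list), OE-PURPL over PCDNA on the left and ASO-PURPL over ASO-NC on the right, with pair 1 as a circle and pair 2 as a triangle joined by a line. In the overexpression panel 12 genes lie right of 0 in both pairs and 14 left of it, and in the knockdown panel 5 and 12.

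For each of the 5 genes, the 3 tested genes with the most similar pattern over the 8 libraries are given with Pearson's r of log2(FPKM + 1). The libraries fall into 2 arms, so that for genes that differ between the arms r rests largely on that step. PLAT differed little between them (PCDNA minus ASO-NC -0.12 and -0.09 on the log2 scale). Each r is a description. The genes were picked as the most similar of all those tested, so a high r follows partly from that choice. For SERPINB2 these were PGRMC1 (0.998), RNF122 (0.996) and BCL2L13 (0.996), and for PLAUR they were DEDD (0.995), PLP2 (0.993) and ABHD12 (0.992). For PLAU they were AC005562.1 (0.997), ZNF410 (0.978) and MCM10 (0.976), and for SERPINE2 AGPAT5 (0.986), LDOC1 (0.981) and PI4KA (0.98). PLAT, the most even gene, had lower r than the other 4 even with its most similar genes, SLX1B (0.952), GADD45GIP1 (0.94) and REC8 (0.936).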

How the data were processed

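Expression was measured by RNA sequencing in 8 libraries of BJ cells. The submitters' processing notes name STAR, Cufflinks and hg38 without versions, and no annotation is stated there. Values in the 3 tables were deposited by the authors as FPKM, a unit inferred from those notes and the values because no header states it, and each table of replicate 1 also has a log2 fold change computed by the authors. In those tables the lowest value is 0.01 FPKM, while zeros were kept in the table of replicate 2. The series' design text names other cells, so the labels were followed.

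Each table had 60635 rows. In each, 1264 rows repeated a name already present, of each name the row of highest mean was taken, and 1 gene was dropped because a cell held text. Log2 ratios of FPKM plus a pseudocount of 1, treated over control within a table and replicate number, were fitted in limma 3.58.1 (R 4.3.3) with 1 coefficient per comparison and a trended prior. Benjamini-Hochberg adjustment ran over the 14977 genes whose mean reached 1 FPKM in either comparison. Residual degrees of freedom were 2, with 3.34 added by the prior. The pseudocount understates changes of low genes. The 95% intervals use limma's standard errors and are not adjusted. The labels do not say whether replicates were separate cultures, so the spread behind each p-value may be technical. The pairing follows the tables and replicate numbers, and the deviations of same-numbered libraries correlated across genes with r = 0.14 (overexpression) and 0.49 (knockdown). Cufflinks values are model estimates and depth is unknown, so levels carry no counting error. Coordinates, lengths and GC content are from GENCODE 29, and upstream sequences from RefSeq (GRCh38.p14).

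The 5 genes and all lists were chosen with earlier results of these data known. Named genes were the 5, in each list and comparison any member past the test or else the 3 largest changes of equal sign in both pairs, the 3 most similar genes, and PURPL. Other genes were named after their values were seen, and some genes of the lists are not reported here. Alternatives were other pseudocounts and filters, quantile normalization with no replicate block, median centring, removal of the length and GC trend, no trend in the prior, separate fits and leaving out each pair.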

Additional observations from a re-analysis of the deposited data

Results flagged for a closer look

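PLAUR and SERPINB2 stood higher in every overexpression pair and lower in every knockdown pair. The difference between the 2 changes was 0.59 on the log2 scale for PLAUR and 0.49 for SERPINB2, with an adjusted p of 0.35 for PLAUR and of 0.373 for SERPINB2 in limma, so that neither passed. With the length and GC trend removed the difference was 0.347 for PLAUR and 0.517 for SERPINB2, and with quantile normalization and no replicate block it was 0.367 for PLAUR and 0.271 for SERPINB2. Such opposite signs in all 4 pairs were seen for 12.5% of all genes tested.

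Ratios with PLAUR or SERPINB2 within a library reuse the values above and add no separate support. Differences of ratios were not tested. PLAUR over PLAU had a difference of 0.71 and SERPINB2 over SERPINE2 of 0.56, both with increases in the overexpression pairs and decreases in the knockdown pairs. In knockdown pair 1 the log2 ratio was -0.04 for PLAUR and 0.27 for PLAU. With the length and GC trend removed, SERPINB2 and SERPINE2 both had 0.2 in overexpression pair 1. PLAU over PLAT ran the other way, with a difference of -0.31. It was 5.88 and 6.21 in OE-PURPL against 6.47 and 6.93 in PCDNA, and 4.59 and 5.57 in ASO-PURPL against 3.87 and 5.27 in ASO-NC.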

How the results depend on the processing

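None of the 5 genes passed in any alternative run, in either comparison or in their difference. The adjusted p (limma) of PLAUR after overexpression ranged from 0.226 to 1.0 over the alternatives, and that of SERPINB2 from 0.262 to 1.0. Removing the length and GC trend turned SERPINE2 to 0.124 after overexpression and to 0.097 in the difference of the changes, and the endocytic receptors had a median of -0.021 after overexpression. The cause was not tested. With no replicate block and quantile normalization, SERPINE2 was -0.012 after knockdown, and the medians after overexpression were -0.215 for the partners of the urokinase receptor and 0.085 for the proteases that activate pro-urokinase. In that fit without the pairing, PLAUR was 0.31 and SERPINB2 0.15 after overexpression. With quantile normalization PLAT had -0.149 for PCDNA minus ASO-NC.

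Over all genes, 4 passed upward after overexpression. There were 0 with each comparison fitted alone, which leaves fewer residual degrees of freedom, 1 with the length and GC trend removed and 2 with a pseudocount of 5. After knockdown none passed, with 1225 at an unadjusted p under 0.05, but 7 higher and 2 lower passed with no filter and 1 lower with a pseudocount of 0.1. In the difference of the changes 3 passed upward and 0 downward, with 1 upward after removing the length and GC trend, 6 downward with no filter and 1 downward with no replicate block and quantile normalization.

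Leaving out each pair, which leaves a lone pair assumed to vary like the others, gave 0 to 1 genes higher after overexpression and 0 to 0 in the difference. After overexpression PLAUR ranged from 0.398 to 0.57, SERPINB2 from 0.13 to 0.519, PLAU from -0.077 to 0.066, PLAT from 0.079 to 0.199 and SERPINE2 from -0.112 to -0.003. After knockdown PLAUR ranged from -0.166 to -0.043, SERPINB2 from -0.21 to -0.126, PLAU from -0.047 to 0.271, PLAT from -0.123 to 0.027 and SERPINE2 from -0.101 to 0.117. The difference of the changes ranged from 0.502 to 0.675 for PLAUR, 0.298 to 0.687 for SERPINB2, -0.276 to 0.042 for PLAU and -0.174 to 0.043 for SERPINE2. Medians after overexpression ranged from -0.02 to 0.212 for the other inhibitors, -0.265 to -0.047 for the endocytic receptors and -0.15 to -0.071 for the partners of the receptor, and after knockdown from -0.064 to 0.098 for the substrates.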

Other observations

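SERPINB2 lies in a cluster of serpin genes of the same clade on chromosome 18. Of 10 such genes there with a row in the tables, SERPINB5, SERPINB12, SERPINB13, SERPINB4, SERPINB11 and SERPINB3 reached at most 0.219 FPKM in any library. SERPINB7, upstream of SERPINB2 (63752935 to 63805376, plus strand), averaged 21.9 FPKM in OE-PURPL and 20.8 FPKM in PCDNA, and 27.3 FPKM in ASO-PURPL and 29.9 FPKM in ASO-NC. SERPINB8, downstream of it (63969925 to 64019779, plus strand), averaged 36.9 FPKM in OE-PURPL and 35.9 FPKM in PCDNA, and 21.7 FPKM in ASO-PURPL and 21.5 FPKM in ASO-NC. SERPINB10, which overlaps SERPINB2 on the same strand, averaged 1.34 FPKM in OE-PURPL and 0.583 FPKM in PCDNA, and 1.25 FPKM in ASO-PURPL and 0.287 FPKM in ASO-NC. Its levels, 0.138 to 1.61 FPKM, are too low to read a direction. Whether fragments of SERPINB2 were counted in it was not tested. By these means SERPINB7 was lower and SERPINB8 higher in the overexpression arm than in the knockdown arm. These genes were chosen by position after the values of SERPINB2 were seen, and no test was made.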
